A study of Mus musculus with 6 samples.

Results

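The 9 genes described here encode the CD3 chains and the first signalling proteins of the T cell antigen receptor: Cd3e, Cd3d, Cd3g, Cd247, Lck, Zap70, Lat, Lcp2 and Ptprc. They were chosen by name, from 55487 genes in each deposited table, and all 9 were among the 11950 that passed the filter on low counts. Messenger RNA came from naive CD4+ T cells of the spleen of wild-type (WT) C57BL6/J mice, in 3 libraries from mice given rapamycin in vivo and 3 from mice given no treatment. Rapamycin inhibits the kinase mTOR, and the comparison asks how that inhibition changes these cells. Its dose, route and duration, the age of the mice, the way the cells were purified and whether each library is a separate mouse are not given in the sources used here. The p-values therefore rest on variation among libraries that may be technical replicates.

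The antigen receptor of an αβ T cell has no signalling domain of its own. Its αβ chains assemble with a CD3ε–CD3δ pair, a CD3ε–CD3γ pair and a ζ–ζ pair (from Cd247), whose cytoplasmic tails carry tyrosine motifs called ITAMs. When the receptor binds its ligand, the kinase Lck phosphorylates these motifs, the kinase ZAP-70 docks on them and phosphorylates the adaptors LAT and SLP-76 (from Lcp2), and these assemble the complex that starts calcium and Ras signalling. The phosphatase CD45 (from Ptprc) keeps Lck ready by removing a phosphate from its inhibitory tyrosine, and also acts on activated sites. In naive T cells the same chain carries the weak signals from self-ligands that help these cells survive.

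The CD3 genes Cd3g, Cd3d and Cd3e lie together on chromosome 9, whereas Cd247 is on chromosome 1. On mm10 Cd3g (ENSMUSG00000002033) spans 44969572 to 44980431 on the minus strand, Cd3d (ENSMUSG00000032094) spans 44981786 to 44987339 on the plus strand, and Cd3e (ENSMUSG00000032093) spans 44998740 to 45009627 on the minus strand. Cd3g and Cd3d are divergent neighbours whose RefSeq starts are 1355 bases apart, and the start of Cd3e is 27825 bases from that of Cd3d. Cd247 (ENSMUSG00000005763) spans 165788681 to 165877277 on the plus strand of chromosome 1. The 250 bases before the RefSeq start (GRCm38.p6, the assembly named mm10) are shown for these 4 chains, because Cd3d and Cd3g had like fold changes in counts (less alike once corrected for transcript length) and Cd3e did not pass the test there. Cd3g is chr9:44980432-44980681, minus strand; Cd3d is chr9:44981536-44981785, plus strand; Cd3e is chr9:45009612-45009861, minus strand; Cd247 is chr1:165788431-165788680, plus strand. Capitals mark matches, on either strand, to 5 motifs. The core that ETS factors bind was searched as GGAAGT, and the site of RUNX factors as TGTGGT. The letters AGATAA were used for factors of the GATA family. For a GC box the letters GGGCGG were used, and for a TATA box the run TATAAA. No matches shared bases in these windows.
Cd3g: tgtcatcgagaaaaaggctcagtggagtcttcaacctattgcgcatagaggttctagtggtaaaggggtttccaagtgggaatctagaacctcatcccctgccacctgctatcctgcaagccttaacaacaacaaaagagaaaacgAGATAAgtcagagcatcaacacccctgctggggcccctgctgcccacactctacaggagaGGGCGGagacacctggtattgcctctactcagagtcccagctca
Cd3d: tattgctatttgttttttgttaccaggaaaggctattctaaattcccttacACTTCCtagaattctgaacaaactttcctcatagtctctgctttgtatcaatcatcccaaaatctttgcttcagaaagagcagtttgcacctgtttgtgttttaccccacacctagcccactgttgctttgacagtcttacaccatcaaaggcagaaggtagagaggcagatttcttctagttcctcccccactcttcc
Cd3e: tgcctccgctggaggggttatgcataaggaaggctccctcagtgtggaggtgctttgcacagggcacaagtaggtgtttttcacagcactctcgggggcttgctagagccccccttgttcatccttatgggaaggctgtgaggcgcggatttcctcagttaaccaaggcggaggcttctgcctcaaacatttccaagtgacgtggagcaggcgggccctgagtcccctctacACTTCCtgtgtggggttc
Cd247: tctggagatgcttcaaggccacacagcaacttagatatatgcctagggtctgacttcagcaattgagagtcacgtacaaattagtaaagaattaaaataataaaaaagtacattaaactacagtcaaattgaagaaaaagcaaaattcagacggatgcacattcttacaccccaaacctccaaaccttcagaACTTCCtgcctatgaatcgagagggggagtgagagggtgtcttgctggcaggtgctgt
An ETS core lay before Cd3e, Cd3d and Cd247, always on the reverse strand as ACTTCC, with its first base 18 bases before the start of Cd3e, 199 before that of Cd3d and 58 before that of Cd247. The window of Cd3g held a GATA match and a GC box, with no ETS core, and had no searched motif in common with that of Cd3d. The same letters were found before 19.7% of the 32851 promoters in the RefSeq table for the ETS core, 14.0% for RUNX, 9.99% for GATA, 32.7% for the GC box and 12.4% for the TATA box. The ETS letters were picked after the sequences had been read, and these matches are descriptions only.

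The other 5 genes are scattered over the genome. On mm10 Lck (ENSMUSG00000000409) is on chromosome 4, from 129548344 to 129573641 on the minus strand, and Zap70 (ENSMUSG00000026117) on chromosome 1, from 36761798 to 36782818 on the plus strand. Lat (ENSMUSG00000030742) is on chromosome 7, from 126363824 to 126369570 on the minus strand. Lcp2 (ENSMUSG00000002699) is on chromosome 11, from 34046920 to 34092295 on the plus strand. Ptprc (ENSMUSG00000026395) is on chromosome 1, from 138062861 to 138175708 on the minus strand.

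The libraries held between 8757280 and 9315370 counts in the rapamycin group and between 9712671 and 11393317 in the untreated group, and the lowest count of a member in any library was 1769, for Zap70. The naive CD4 markers Cd4, Trac, Ccr7, Lef1 and Tcf7 were all abundant, each between 381 and 1653 CPM (counts scaled to a common library size) in rapamycin libraries and between 470 and 1545 CPM in untreated ones; 3 of these 5 were lower and 2 higher. Markers of other cells also moved. The CD8 markers Cd8a and Cd8b1 (2 of 2 higher) summed to 86.7 to 89.5 CPM in rapamycin libraries and 19.3 to 20.7 CPM in untreated ones. The 8 myeloid markers, all lower, summed to 13.6 to 15.4 CPM with rapamycin and 47.2 to 54.1 CPM without. The 6 B cell markers (2 lower) summed to 452 to 481 CPM with rapamycin and 488 to 516 CPM without, and the 6 NK cell markers (4 tested, 2 lower and 1 higher) to 17.2 to 19.6 CPM with rapamycin and 22.9 to 24.7 CPM without. No marker was at 0 in all libraries. CD8 T cells express all 9 genes, and NK cells express several of them. Ptprc is shared with B and myeloid cells, and Lcp2 with myeloid cells. The part of all these cells in the results below was not tested. In such bulk samples, fewer cells of a type and less RNA per cell cannot be told apart.

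Of the 9 genes 6 were lower with rapamycin, namely Cd3d, Cd3g, Cd247, Lck, Zap70 and Lat, and 2 were higher, namely Lcp2 and Ptprc. Cd3e, the CD3 chain present in both CD3 pairs, did not pass the test. Over all 11950 genes tested, 23.3% were lower and 24.1% higher by the same test, edgeR's quasi-likelihood test on counts with Benjamini-Hochberg adjustment over all genes and a threshold of 0.05. The median log2 fold change, rapamycin over untreated, was −0.21 over the 9 genes and −0.01 over all genes. Every change was small, between −0.34 and 0.16 on the log2 scale. In each of the 9 genes the groups did not overlap in CPM, which was so for 53.8% of all tested genes, nor in TPM, which was so for 47.0%.

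**Figure D1:**
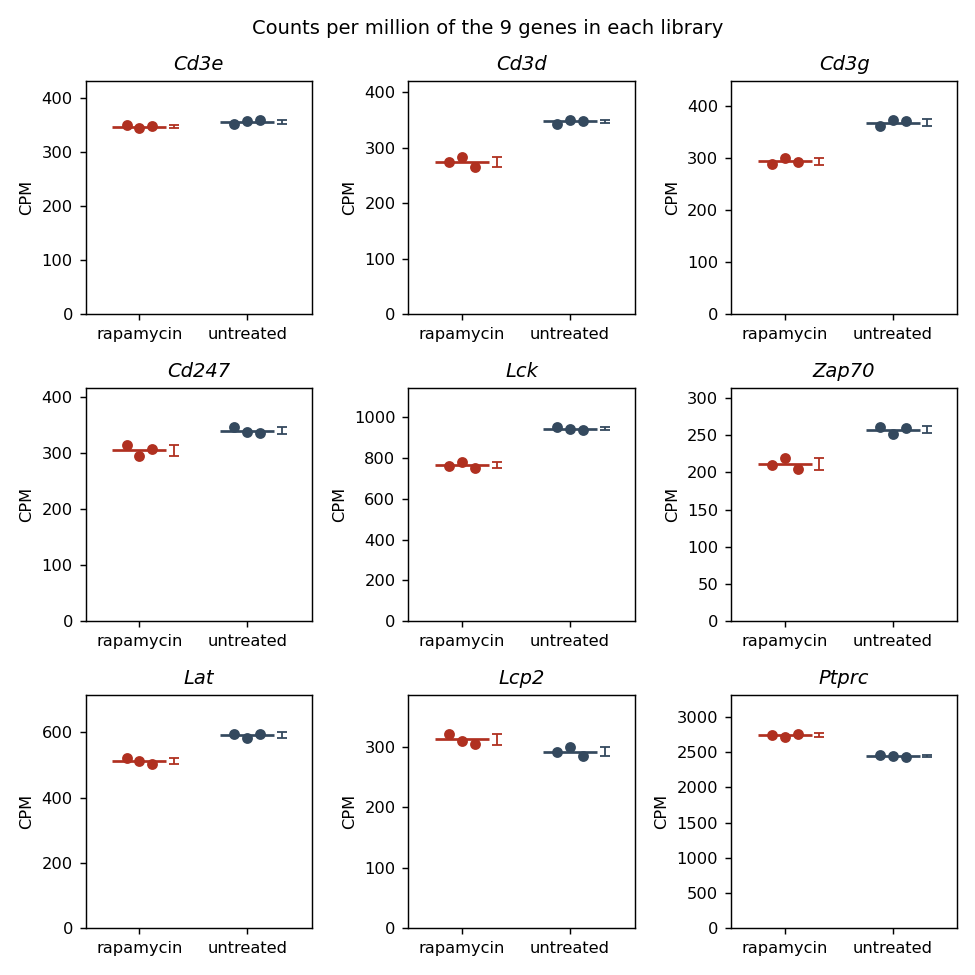
CPM of each gene (vertical axis, from 0, with a scale for each gene) in the 3 rapamycin (left) and 3 untreated (right) libraries; points are libraries, horizontal lines group means and bars SD. Cd3d, Cd3g, Lck, Zap70 and Lat are visibly lower with rapamycin, Ptprc is higher, and the groups of Cd3e are nearly level at means of 348 and 357 CPM.

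Across all genes the fold changes in these libraries followed transcript length, and the 9 genes differ in length, from a mean of 1054 bases for Cd3g to 3975 bases for Ptprc. Each change is therefore also given from a fit in which a smooth trend on transcript length was removed from every library, called length-corrected, and in TPM, a level scaled by the transcript length that the authors' program estimated. With the length correction 4 genes were lower (Cd3d, Cd3g, Lck and Zap70) and 2 higher (Cd3e and Ptprc), against 18.2% lower and 20.2% higher among all genes. On log2(TPM + 1), tested with limma, 5 were lower (Cd3d, Cd3g, Lck, Zap70 and Lat) and 2 higher (Lcp2 and Ptprc), against 9.63% and 22.8% of all genes. The median over all genes was 0.09 on that scale and −0.01 with the length correction. The calls for Cd3d, Cd3g, Lck and Zap70 were lower under each of the 20 alternative analyses run.

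**Figure D2:**
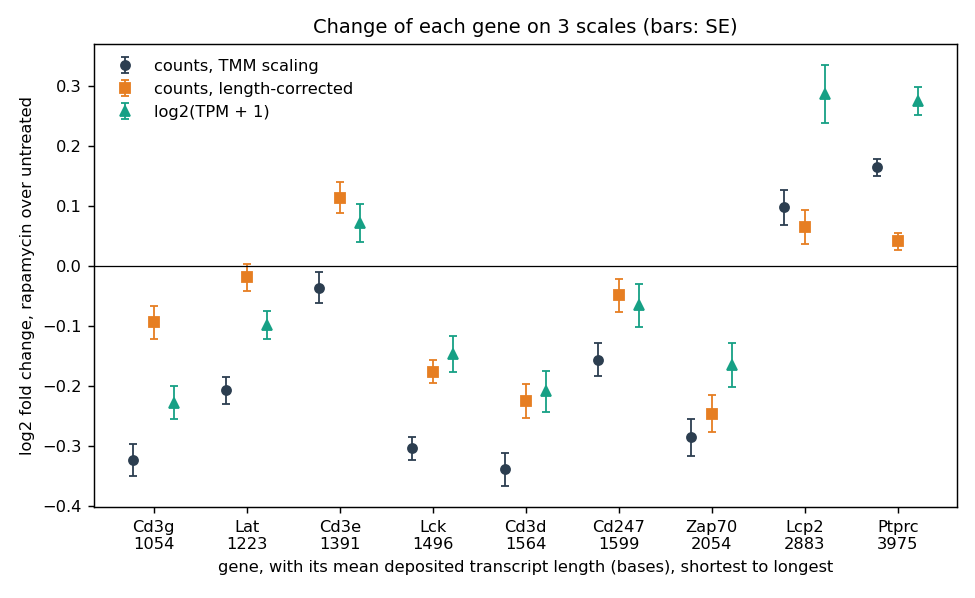
Log2 fold change, rapamycin over untreated, of each gene on 3 scales (circles: counts; squares: length-corrected counts; triangles: log2(TPM + 1)), with genes ordered from the shortest to the longest transcript and bars of 1 SE. The correction raised the 7 genes with the shortest transcripts and lowered Lcp2 and Ptprc, with Cd3e at −0.04 on counts and 0.11 length-corrected, Lat at −0.21 and −0.02, and Zap70 at −0.29 and −0.25.

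Among the chains of the receptor complex, Cd3d, which encodes the CD3δ chain that pairs with CD3ε, had 274, 284 and 266 CPM in the rapamycin libraries, against 344, 350 and 348 CPM in the untreated ones. All rapamycin libraries were below all untreated ones. Its log2 fold change was −0.34 ± 0.03 (SE; adjusted p = 3.6e-16 by edgeR), or −0.23 length-corrected (adjusted p = 1.1e-09).

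Cd3g, which encodes the CD3γ chain, had 289, 302 and 294 CPM with rapamycin, against 362, 374 and 371 CPM without. Again the groups were well separated. The log2 fold change was −0.32 ± 0.03 (edgeR adjusted p = 8.9e-16), and −0.09 length-corrected (adjusted p = 0.0044). Cd3g has the shortest transcript of the 9 and took the largest correction, 0.23 on the log2 scale.

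Cd3e, which encodes CD3ε, had 350, 344 and 349 CPM with rapamycin, against 353, 357 and 360 CPM without. The groups lay next to each other, with a log2 fold change of −0.04 ± 0.03 (edgeR adjusted p = 0.26). Its sign turned with the scale: 0.11 ± 0.03 after length correction (adjusted p = 3.6e-04) and 0.07 ± 0.03 on log2(TPM + 1) (limma adjusted p = 0.13). The median over all genes was 0.09 on log2(TPM + 1), above the value of Cd3e, and −0.01 on counts.

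Cd247, which encodes the ζ chain with its several ITAMs, had 314, 295 and 307 CPM with rapamycin, against 347, 337 and 335 CPM without. The fall was smaller than that of Cd3d and Cd3g, −0.16 ± 0.03 on the log2 scale (edgeR adjusted p = 3.5e-06), and did not pass after length correction (−0.05, adjusted p = 0.16) or on log2(TPM + 1) (−0.07, limma adjusted p = 0.19). Exons of Cd247 share 3007 bases with those of Pou2f1 on the opposite strand, and 206 with Gm16565 on its own strand. Pou2f1 had 1348 to 1400 counts in the rapamycin libraries and 1099 to 1208 in the untreated ones. The library kit keeps strand, but whether the counting used it is not given in the sources used here, so the value of Cd247 is uncertain to that extent. Of the other genes, Cd3e shares 135 exon bases with an antisense transcript of at most 14 counts and Lcp2 282 bases with an opposite-strand gene of at most 2 counts in any library.

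Because the levels of the 4 chains were measured in the same library, their proportions do not depend on how libraries are scaled to each other. The shares below are not corrected for the trend of fold changes with transcript length. With that correction the log2 fold change was −0.23 for Cd3d and −0.09 for Cd3g. Cd3e made up 27.6, 27.6 and 27.5% of the summed TPM of the 4 chains in the rapamycin libraries, against 23.7, 24.6 and 24.5% in the untreated ones. Cd3g made up 32.5, 33.3 and 33.3% with rapamycin, against 35.5, 35.7 and 35.9% without. Both shifts were larger than the spread within groups, upward for Cd3e and downward for Cd3g, and by an exact permutation test (two-sided) each gave p = 0.1, the lowest possible with 3 libraries against 3. The share of Cd3d was 18.8, 19.7 and 18.7% with rapamycin, against 20.3, 20.5 and 20.3% without (exact permutation p = 0.1). The share of Cd247 was 21.1, 19.4 and 20.6% with rapamycin, against 20.5, 19.3 and 19.3% without, and these groups overlapped (exact permutation p = 0.2). After Benjamini-Hochberg adjustment over the 4 shares these p-values were 0.13 for Cd3e, Cd3g and Cd3d and 0.2 for Cd247. The summed TPM of the 4 chains was 1538, 1563 and 1553 with rapamycin, against 1651, 1700 and 1690 without.

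**Figure D3:**
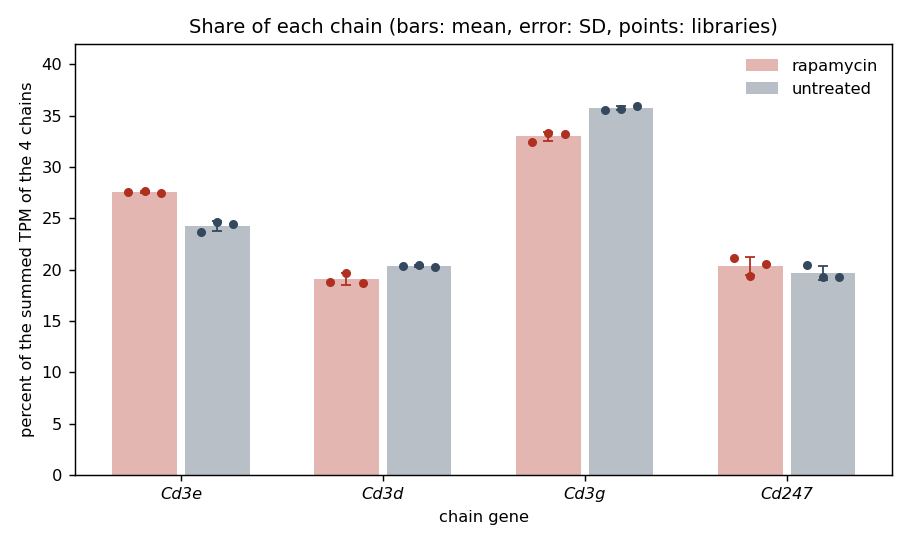
Share of each chain gene in the summed TPM of the 4 chains, in percent (vertical axis from 0); bars are group means, points the 3 rapamycin (left of each pair) and 3 untreated libraries, and error bars SD. Cd3e has a mean of 27.6% with rapamycin and 24.3% without, Cd3g and Cd3d have smaller shares with rapamycin, and the groups of Cd247 overlap. The shares are not length-corrected.

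The ratio of Cd3e to Cd3d in counts was 1.28, 1.21 and 1.31 with rapamycin, against 1.03, 1.02 and 1.03 without, and that of Cd3e to Cd3g was 1.21, 1.14 and 1.19 with rapamycin, against 0.976, 0.955 and 0.969 without. The groups did not overlap for either ratio, and they remained apart when the counts were length-corrected (Cd3e to Cd3d 1.23 to 1.33 with rapamycin and 1.01 to 1.02 without; Cd3e to Cd3g 1.12 to 1.17 with rapamycin and 0.980 to 1.00 without). The divergent neighbours kept close to each other: the ratio of Cd3g to Cd3d was 1.06, 1.06 and 1.10 with rapamycin, against 1.05, 1.07 and 1.07 without, with overlapping groups. After length correction the groups of that ratio did not overlap, at 1.10 to 1.15 with rapamycin and 1.01 to 1.03 without.

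Both kinases were lower. Lck, the Src-family kinase that binds the tails of CD4 and CD8, had 763, 780 and 753 CPM with rapamycin, against 954, 945 and 936 CPM without. Its log2 fold change of −0.30 ± 0.02 had the smallest adjusted p of the 9 (edgeR adjusted p = 1.0e-20), and it was −0.18 length-corrected (adjusted p = 3.2e-11). Zap70, the kinase that docks on phosphorylated ITAMs, had 210, 220 and 205 CPM with rapamycin, against 262, 252 and 260 CPM without. Its log2 fold change was −0.29 ± 0.03 (edgeR adjusted p = 5.8e-12), or −0.25 length-corrected (adjusted p = 1.4e-09), the largest fall of the 9 on that scale. The ratio of Zap70 to Lck in counts was 0.272 to 0.282 with rapamycin and 0.267 to 0.277 without, so these groups overlapped. With length correction it was 0.263 to 0.2739 with rapamycin and 0.2742 to 0.286 without, so the groups nearly met but did not overlap.

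The adaptors moved in opposite directions. Lat, the membrane scaffold phosphorylated by ZAP-70, had 522, 512 and 502 CPM with rapamycin, against 596, 582 and 596 CPM without. That was a log2 fold change of −0.21 ± 0.02 (edgeR adjusted p = 1.1e-11), which came to −0.02 with the length correction (adjusted p = 0.53). Lcp2, which encodes the cytosolic adaptor SLP-76, had 322, 311 and 305 CPM with rapamycin, against 292, 301 and 285 CPM without. The groups lay close together, with a log2 fold change of 0.10 ± 0.03 (edgeR adjusted p = 0.0036) that did not pass after length correction (0.07, adjusted p = 0.063) or without rapamycin replicate 1 (0.07, adjusted p = 0.050). With upper-quartile factors it was 0.05 (adjusted p = 0.12) and without composition factors 0.06 (adjusted p = 0.10), and the call was lost in 6 of the 20 alternatives. On log2(TPM + 1) the change was 0.29 ± 0.05 (limma adjusted p = 0.0040), where the median over all genes was 0.09.

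TPM uses the transcript length that the authors' program, RSEM, weighted by its estimate of which transcripts were made, and for Lcp2 that length differed between groups. It was 2775, 2803 and 2812 bases with rapamycin, against 2955, 2917 and 3037 bases without, a difference of −173 bases. Lcp2 has protein-coding transcripts of 3644 and 2209 bases in the annotation, and a lower mean length means that more weight went to the shorter ones. Smaller shifts without overlap were found for Zap70 (−26.3 bases), Cd247 (12.6 bases) and Cd3g (10.3 bases), and the groups overlapped for Cd3e, Cd3d, Lck, Lat and Ptprc. The share of all tested genes whose lengths did not overlap was not computed. Whether such shifts are more common among the 9 genes than elsewhere therefore cannot be said. Over the 9 genes compared, each of the 4 shifts without overlap had an exact permutation p of 0.1, or 0.23 after Benjamini-Hochberg adjustment, in a design that cannot go below 0.1. Ptprc, whose alternative exons give the CD45 isoforms, has 13 transcripts in the files. Its mean length was 3986, 3970 and 3902 bases with rapamycin, against 4023, 3939 and 4029 bases without, and the single isoforms cannot be told apart in gene-level values.

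Ptprc, the CD45 phosphatase gene, was the more abundant of the 2 genes called higher. It had 2746, 2715 and 2768 CPM with rapamycin, against 2457, 2453 and 2437 CPM without. The log2 fold change was 0.16 ± 0.01 (edgeR adjusted p = 1.2e-15). It was 0.27 ± 0.02 on log2(TPM + 1) (limma adjusted p = 1.9e-04), where the median over all genes was 0.09. After length correction it was 0.04 ± 0.01 (adjusted p = 0.018). With a further correction for GC content it was 0.01 and did not pass (adjusted p = 0.68). Ptprc has the longest transcripts of the 9, and all its rapamycin libraries lay above all untreated ones in CPM and in TPM.

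In TPM, which allows levels of different genes to be compared per length, the order of the highest genes changed. In the rapamycin libraries Ptprc came first, with 1029, 1021 and 1063 TPM, above Lck with 866, 898 and 870 TPM. In the untreated libraries Lck came first, with 1010, 969 and 940 TPM, above Ptprc with 854, 874 and 845 TPM. The ratio of Ptprc to Lck in TPM was 1.19, 1.14 and 1.22 with rapamycin, against 0.846, 0.902 and 0.899 without. The length-corrected CPM ratio also did not overlap between groups, at 3.20 to 3.36 with rapamycin and 2.82 to 2.83 without, although CPM is not per length and so does not give the order.

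Below these, the order in the rapamycin libraries was Lat (738 ± 11.7 TPM), Cd3g (512 ± 11.0), Cd3e (428 ± 3.67), Cd247 (316 ± 11.5), Cd3d (296 ± 10.8), Lcp2 (172 ± 6.01) and Zap70 (165 ± 5.0; mean ± SD, n = 3). In untreated libraries it was Lat (791 ± 14.1 TPM), Cd3g (600 ± 11.6), Cd3e (408 ± 14.9), Cd3d (342 ± 6.34), Cd247 (330 ± 6.58), Zap70 (186 ± 2.82) and Lcp2 (141 ± 7.05). Cd247 and Cd3d were neighbours whose libraries overlapped in both groups, and so were Lcp2 and Zap70 with rapamycin, whereas untreated Zap70 lay above Lcp2 in every library. By mean TPM over all genes in the tables, the 9 ranked between 132nd (Ptprc) and 735th (Zap70) with rapamycin and between 136th (Lck) and 816th (Lcp2) without.

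**Figure D4:**
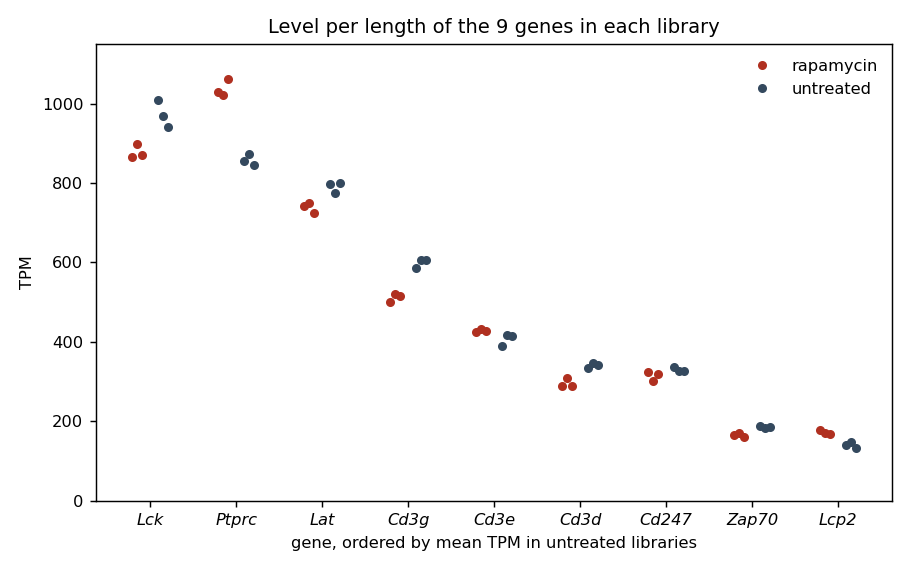
TPM of each gene (vertical axis, from 0) in the 3 rapamycin (left of each pair) and 3 untreated libraries, with genes ordered by their mean in untreated libraries. Ptprc lies above Lck in all rapamycin libraries and below it in all untreated ones, and Lcp2 and Zap70 meet in the rapamycin group.

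The genes whose profile over the 6 libraries lay nearest to that of Cd3e, among 7365 protein-coding genes averaging 4 or more on the log2 CPM scale, were Dgkd (Euclidean distance of log2 CPM deviations 0.022), Cd4 (0.032) and Gpsm3 (0.040). On counts Cd4, the co-receptor gene, changed by −0.06 (edgeR adjusted p = 0.016), a call lost on log2(TPM + 1), by DESeq2, without rapamycin replicate 2 (−0.05) and without untreated replicate 3 (−0.05). With the length correction the 3 parted, at −0.23 for Dgkd, −0.08 for Cd4 and 0.14 for Gpsm3, against 0.11 for Cd3e. Those nearest to Ptprc were Hnrnph1 (0.017), Pogz (0.021) and Pds5a (0.024), with log2 fold changes of 0.17, 0.17 and 0.16. Genes chosen by profile have like count fold changes by construction. With the length correction these spread to 0.31, 0.00 and 0.10, against 0.04 for Ptprc.

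Other genes of proximal signalling were taken from 4 lists with 51 genes in all, each of which was tested. Of the 51, 20 were lower and 17 higher (length-corrected 20 and 14), with a median log2 fold change of −0.05; among all genes tested the shares were 23.3% lower and 24.1% higher (length-corrected 18.2% and 20.2%). On log2(TPM + 1) the balance turned, with 11 lower and 19 higher and a median of 0.11, where all genes had 9.63% lower and 22.8% higher and a median of 0.09. Of the 6 receptor chain and partner genes 5 were lower and 1 higher, against 23.3% and 24.1% of all genes, and their median was −0.22. After length correction 3 were lower and 2 higher, and the median was −0.01; on log2(TPM + 1) 3 were lower and 1 higher, with a median of −0.09. Trac, the constant region of the receptor α chain, had 388, 396 and 389 CPM with rapamycin, against 677, 688 and 670 CPM without. Its log2 fold change of −0.80 ± 0.02 (edgeR adjusted p = 3.0e-37; length-corrected −0.52) exceeded that of every CD3 gene. The β constant genes Trbc1 and Trbc2 changed by −0.41 (length-corrected −0.08) and −0.27 (length-corrected 0.06, called higher); they are near-identical copies among which reads may have been split. Trat1, a transmembrane adaptor that associates with the receptor, rose by 0.42 ± 0.04 (edgeR adjusted p = 1.1e-12; length-corrected 0.45).

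Among 7 genes for other proximal kinases and for partners of Lck and CD45, 2 were lower and 3 higher (length-corrected 2 and 2), with a median of 0.10, where 23.3% and 24.1% of all genes were called. On log2(TPM + 1) the numbers were 2 and 4, with a median of 0.13. All genes on that scale had 9.63% lower, 22.8% higher and a median of 0.09. Length-corrected, 18.2% of all genes were lower and 20.2% higher. The Tec-family kinase genes Txk and Tec rose: Txk had 186, 198 and 183 CPM with rapamycin, against 142, 140 and 141 CPM without (0.42 ± 0.04), and Tec changed by 0.58 ± 0.08, each with an edgeR adjusted p of at most 9.5e-09 and nearly the same value length-corrected (0.41 and 0.60). Ptprcap, whose product binds CD45, went the other way from Ptprc, with 240, 223 and 220 CPM with rapamycin, against 324, 319 and 323 CPM without (−0.50 ± 0.03, edgeR adjusted p = 4.6e-22; length-corrected −0.24). Unc119, a trafficking partner of Lck, changed by −0.62 ± 0.15 at a low level, 7.33 CPM with rapamycin and 11.3 CPM without on average. Syk, the relative of ZAP-70 that is abundant in B and myeloid cells, changed by 0.25 (length-corrected 0.07, not called).

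Of 18 genes of the complex built on LAT and SLP-76, 8 were higher and 5 lower (8 and 5 length-corrected), with a median of 0.13, beside all-gene shares of 24.1% and 23.3%. On log2(TPM + 1) the calls were 9 higher against 2 lower, and the median was 0.24. All genes on that scale had 22.8% higher, 9.63% lower and a median of 0.09. Length-corrected, 20.2% of all genes were higher and 18.2% lower. Fyb, the adaptor ADAP that links SLP-76 to integrins, had 496, 473 and 488 CPM with rapamycin, against 393, 392 and 394 CPM without (0.30 ± 0.02, edgeR adjusted p = 1.6e-16; length-corrected 0.38). Grap2, which encodes GADS, the bridge between LAT and SLP-76, rose by 0.23 (length-corrected 0.13), Plcg1, the phospholipase recruited to LAT, by 0.26 (0.18 length-corrected), and Rasgrp1, a Ras activator downstream, by 0.28 (0.11 length-corrected). These 4 were called higher under each of the 20 alternatives. They were picked by smallest adjusted p, and the alternatives refit the same libraries, so this is not independent support.

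Of 20 negative regulators 8 were lower and 5 higher (length-corrected 10 and 2), with a median of −0.08, beside 23.3% and 24.1% of all genes. On log2(TPM + 1) 4 were lower and 5 higher, with a median of 0.05. All genes on that scale had 9.63% lower, 22.8% higher and a median of 0.09. Length-corrected, 18.2% of all genes were lower and 20.2% higher. Sit1, a transmembrane adaptor that dampens receptor signals, had 35.1, 42.3 and 38.1 CPM with rapamycin, against 72.3, 69.6 and 72.7 CPM without, a log2 fold change of −0.90 ± 0.06 (edgeR adjusted p = 2.0e-18; length-corrected −0.70). Ptpn6, the phosphatase SHP-1, had 270, 266 and 271 CPM with rapamycin, against 364, 360 and 373 CPM without (−0.44 ± 0.03; length-corrected −0.41). Dgka, a diacylglycerol kinase that limits Ras activation, rose by 0.26 ± 0.02 (length-corrected 0.23). Cbl, a ubiquitin ligase gene with a transcript of 10094 bases, changed by 0.34, or −0.04 length-corrected (not called).

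**Figure D5:**
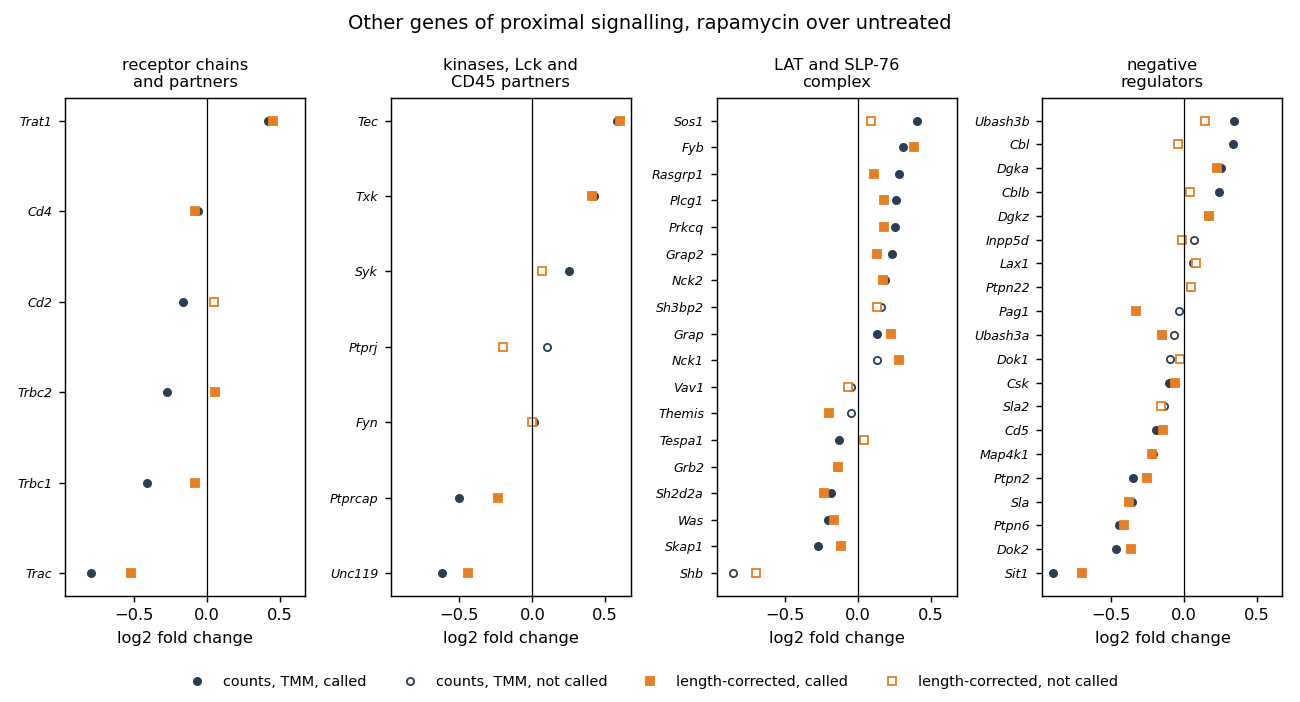
Log2 fold change, rapamycin over untreated (horizontal axis), of the 51 other genes in 4 lists; circles are counts, squares length-corrected counts, filled where the adjusted p is under 0.05. Sit1 and Trac lie farthest to the left among the called genes and Tec farthest to the right, and the squares and circles of Txk, Tec and Ptpn6 nearly coincide.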

How the data were processed

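The deposited tables, 1 per library, hold RSEM expected counts, TPM, FPKM and transcript lengths, per the file headers. STAR, RSEM and mm10 are named in the submitters' processing notes, with no versions. Libraries were made with a directional poly(A) kit, per the labels' protocols. The authors' expected counts divide shared reads between genes, the authors' TPM and FPKM are scaled for effective length and depth, and the deposited lengths are weighted by transcript use. Gene names and positions came from GENCODE vM21 on GRCm38, which matched 55141 of 55487 identifiers, and promoters from RefSeq (GRCm38.p6; all 9 genes matched).

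Expected counts were rounded, filtered with filterByExpr, TMM-scaled and compared with edgeR's quasi-likelihood test (robust, group only). CPM of the named genes are TMM-scaled; marker sums are scaled by library totals. SE is the log2 fold change over the square root of F. The length correction fitted, per library, a natural spline (5 degrees of freedom; log2 transcript length) to deviations of log2 CPM and used it as an offset. limma ran on log2(TPM + 1). Shares and lengths had exact two-sided permutation tests. The members and lists were chosen with earlier results of these data known. All 9 members were named, with up to 4 genes per other list by smallest adjusted p among those called, called genes averaging 2 or more in log2 CPM that changed by at least 0.5 on the log2 scale, and the 3 nearest in profile to Cd3e and to Ptprc. One gene of the kinase list and 1 of the naive CD4 marker list are not reported here and were left out of the lists' counts. The procedure was tested on simulated data. Replicates varied by 1.89 (rapamycin) and 1.91 (untreated) times counting noise. Alternatives are given at the end. Tools were edgeR 4.0.16, limma 3.58.1 and DESeq2 1.42.0 under R 4.3.3, and scipy 1.17.1 and matplotlib 3.10.9 under Python 3.11.15.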

Additional observations from a re-analysis of the deposited data

How the results depend on the processing

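Under the 20 alternatives, between 4 and 7 of the 9 genes were lower and 1 or 2 higher. Over all genes between 1137 and 3330 were lower and between 1931 and 2906 higher, with other numbers tested where the filter changed. The count of 7 came with upper-quartile and without composition factors, where lower calls over all genes were also most numerous. In the main fit 2 of the 9 were higher. There was 1 with upper-quartile factors, without composition factors and with the length and GC correction, and 1 or 2 when single libraries were left out. The genes called higher were not always Lcp2 and Ptprc. With the length correction they were Cd3e and Ptprc. With length and GC only Cd3e was called higher (0.11, edgeR adjusted p = 5.1e-04), while Lcp2 (adjusted p = 0.075) and Ptprc (adjusted p = 0.68) did not pass. Of the 51 other genes, 11 were lower on log2(TPM + 1) and on log2(TPM + 0.1), against 20. Over all genes, 1801 were lower with effective-length offsets, 1151 on log2(TPM + 1) and 1137 on log2(TPM + 0.1), against 2785. The balance of lower to higher calls over all genes was 3330 to 2459 with upper-quartile and 3298 to 2470 without composition factors, against 2785 to 2874.

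Cd3e turned to 0.11 with the length correction, with length and GC and with the length correction in the replicate block, and to 0.0707 on log2(TPM + 1) and 0.0708 on log2(TPM + 0.1); it was called lower with upper-quartile (−0.08) and without composition factors (−0.08). Trbc2 turned to 0.0609, 0.0657 and 0.0608 and Cbl to −0.0438, −0.0353 and −0.0438 with the length correction, with length and GC, and with the length correction in the block. Gpsm3 turned to 0.136, 0.151 and 0.136 under these and to 0.0478 on log2(TPM + 1) and 0.0480 on log2(TPM + 0.1), Dgkd to 0.114 and 0.115 on these TPM scales and 0.0024 with effective-length offsets, and Pogz to −0.00011 with the length correction in the block. The share of Cd3d in the 4 chains differed by −2.13 percentage points and that of Cd3g by −1.99 when taken from counts, against −1.30 and −2.70 from TPM; the cause was not tested. With the replicate number as a block, 6 genes were lower and 2 higher, 2743 and 2850 over all genes, and no call among the 32 named genes changed. Same-numbered libraries correlated between −0.03 and −0.01 in their deviations from their group means, so no pairing by number was seen. These correlations cannot exclude a pairing, because replicates varied by only 1.89 (rapamycin) and 1.91 (untreated) times counting noise.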
